A study of Mus musculus with 16 samples.

Results

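The 33 genes described here encode the enzymes and regulators that build cholesterol and fatty acids, in electrically stimulated and unstimulated mouse muscle cells in culture. They were taken by mouse symbol from a table of 48432 gene identifiers, and all 33 were found and passed the filter on low counts that left 13987 genes for testing. By role they are 5 regulators of SREBP, 7 enzymes of the mevalonate steps, 11 enzymes of the squalene and sterol steps, 4 genes of sterol transport and of the sterol-sensing nuclear receptor LXR, and 6 genes of fatty acid synthesis.

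Cells make cholesterol from acetyl-CoA by way of mevalonate, farnesyl diphosphate, squalene and lanosterol, and they make fatty acids from cytosolic acetyl-CoA by way of malonyl-CoA. The transcription factors SREBP1 and SREBP2 switch on most of these genes; when sterols are plentiful, INSIG proteins hold SREBP and its escort SCAP in the endoplasmic reticulum, and when sterols are scarce SREBP is carried to the Golgi, cut and released to the nucleus. LXR works in the other direction, sensing oxidised sterols and switching on cholesterol export as well as, through SREBP1c, fatty acid synthesis. Muscle fibres use these routes to supply membranes and isoprenoids, the lipid groups that anchor small GTPases and build ubiquinone and dolichol.

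The 4 libraries of the first group came from C2C12 myotubes given electrical pulse stimulation (EPS), and the 4 libraries of the control group from C2C12 myotubes not given it. C2C12 is an established mouse myoblast line, so all libraries come from 1 line, and every culture had been differentiated in low serum for 5 days before it was taken as ready to stimulate. The pulses lasted 6 ms at 1 Hz with 2.75 V/mm, which is a duty cycle of 0.6%, and the polarity changed at 0.5 Hz; no source used here gives how long the stimulation lasted. No label ties the 4 libraries of a group to separate cultures, so the p-values measure the spread between these libraries alone, and that spread may be technical.

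The EPS libraries held 14.7 to 20.7 M counted fragments (M, 10 to the power of 6), and the control libraries 0.354 to 20.7 M, the lowest being control replicate 2. In that library the members had 0 to 656 fragments, 11 members had fewer than 10, and 1 fragment was worth 2.84 CPM (fragments per M fragments, with TMM-scaled library sizes), against at most 0.0802 CPM in each of the other 7. On the first principal component, with 68.4% of the variance, control replicate 2 stood alone, and the second, with 20.2%, set EPS replicates 1 and 2 (scores of -46.38 and -88.11) apart from the rest (-1.63 to 45.25). EPS and control libraries with the same replicate number deviated together, so values are also given with that number as a block (the replicate block). Markers of differentiated myotubes summed to 16200 to 20960 CPM in EPS and to 25520 to 28640 CPM in control, all 9 tested markers had a fold change below 1, and 6 of them fell with the replicate block and 0 without it. Those sums did not overlap, and their part in the results below was not tested; in these bulk libraries, fewer cells of a type and less RNA per cell cannot be told apart. All 8 adipocyte markers, from a cell type rich in fatty acid synthesis, had a mean under 1 CPM, with summed levels of 0.0923 to 1.60 CPM in EPS and 0 to 0.163 CPM in control.

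The members differed widely in level before any comparison. On the deposited FPKM scale, which is per length and so allows genes to be set side by side, the stearoyl-CoA desaturase Scd2 was highest, with 456 FPKM ± 54.8 in EPS and 460 FPKM ± 126 in control (SD, n = 4 each). Its paralog Scd1 followed with 243 FPKM ± 71.0 in EPS and 272 FPKM ± 81.9 in control. Every EPS library of Scd1, up to 339 FPKM, lay below every EPS library of Scd2, from 400.3 FPKM. In control the ranges overlapped, at 190 to 354 FPKM for Scd1 and 311 to 620 FPKM for Scd2. In control replicate 2 the order was reversed, with 354 FPKM for Scd1 and 311 FPKM for Scd2. Next came Hmgcs1, Cyp51, Ebp, Msmo1, Sqle and Fdps, with EPS means of 98.4, 73.2, 65.7, 60.8, 57.8 and 52.7 FPKM, and from Cyp51 to Fdps the EPS ranges of neighbours in this order overlapped. The order below Scd1 depends on the length used: on CPM per kb of exonic length, Acly and Insig1 (35.2 and 35.0 in EPS) ranked 6 and 7, while Fdps and Msmo1 (19.2 and 16.5) ranked 13 and 16. At the low end stood Idi1, with 3.02 FPKM ± 0.573 in EPS and 4.10 FPKM ± 1.29 in control, then the cholesterol exporter Abca1, with 1.43 FPKM ± 0.871 in EPS and 1.06 FPKM ± 0.450 in control. The LXRα gene Nr1h3 was lowest, with 0.692 FPKM ± 0.333 in EPS and 0.340 FPKM ± 0.293 in control.

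**Figure D1:**
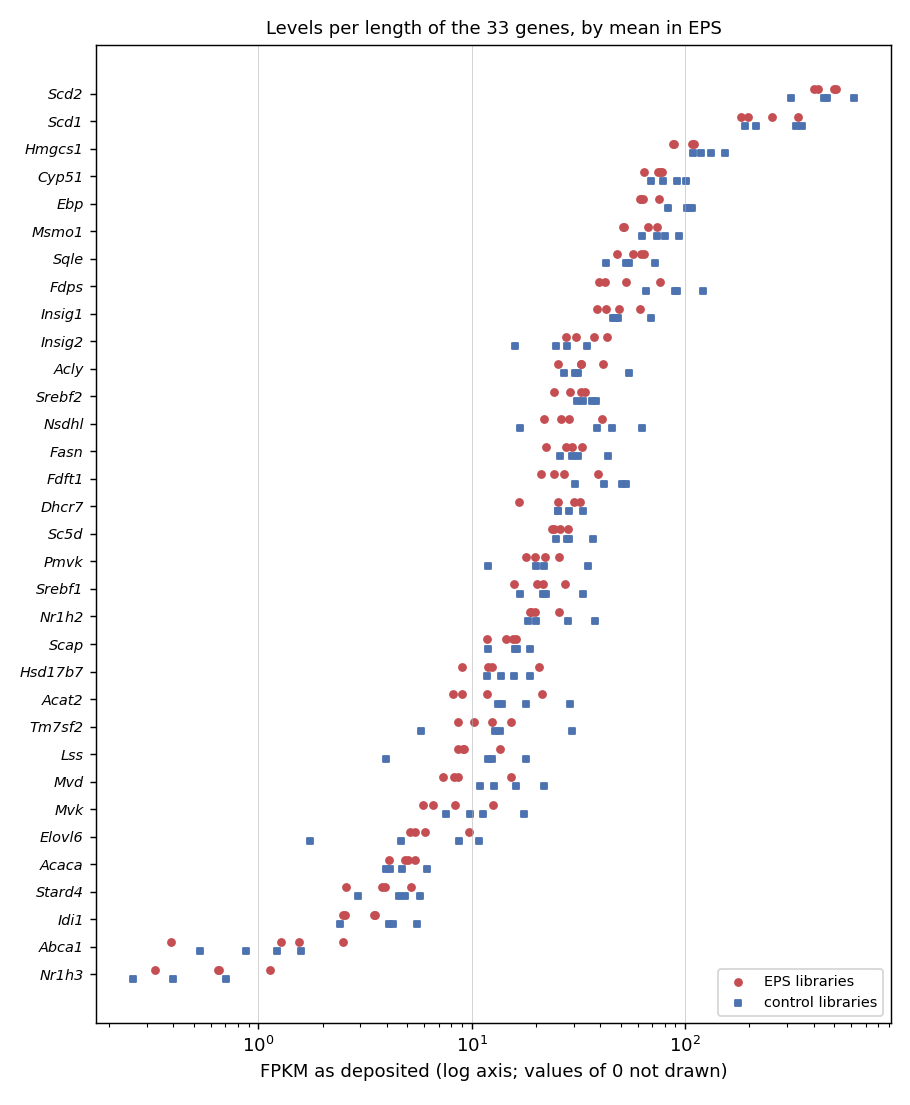
Deposited FPKM (log axis) of the 33 genes in each EPS library (red circles) and each control library (blue squares), sorted by the mean in EPS. Scd2 and Scd1 lie highest, at EPS means of 456 and 243 FPKM, and Nr1h3 lies lowest, at 0.692 FPKM; a value listed at 0 is not drawn.

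With the replicate block, 4 members of the mevalonate steps and 2 of the squalene and sterol steps fell in EPS myotubes, by 27.7% to 38.8%. No member among the fatty acid synthesis genes, the SREBP regulators or the transport and LXR genes passed the test. Without the block none of the 33 passed. In edgeR's quasi-likelihood test on the 8 libraries, 0 of the 33 members were higher and 0 lower at an adjusted p under 0.05, where 2.3% of all genes tested were higher and 0.758% lower. At an unadjusted p under 0.05 there were 6 members, all lower, against 18.5% of all genes in either direction and 6.33% lower. DESeq2 placed 1 member lower, Ebp (adjusted p = 0.0101), against 2.14% of all genes, and 0 higher, against 4.62%. With the replicate block, edgeR called 6 members lower and 0 higher, against 4.78% of all genes lower and 7.31% higher. The 6 were Acat2, Hmgcs1, Mvd and Fdps of the mevalonate steps and Fdft1 and Ebp of the squalene and sterol steps. With length and GC offsets added to the block, 8 members were lower and 0 higher, against 5.08% and 4.47% of all genes. Leaving replicate 2 out of both groups, an alternative chosen after seeing the data, 12 members were lower with the block and 0 higher, against 8.23% and 9.1%. The median log2 fold change was -0.18 over the members and 0.01 over all genes tested, and it was below 0 in 29 of 33 members and in 49.1% of all genes.

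The role groups differed in their medians. Without the block, the median log2 fold change was -0.57 over the mevalonate steps, -0.36 over the squalene and sterol steps, -0.15 over the SREBP regulators, -0.10 over fatty acid synthesis and 0.10 over transport and LXR. The differences between role groups were not tested. Within each pair of libraries that share a replicate number, 13 of 33 members were lower in EPS in all 4 pairs, where 15.8% of all genes were, and 5 of these were among the 7 mevalonate genes and 6 among the 11 squalene and sterol genes. In pairs 1, 3 and 4, which leave out the shallow library, 20 of 33 members were lower, against 26.8% of all genes. Insig2 alone was higher in all 4 pairs, as were 22% of all genes.

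**Figure D2:**
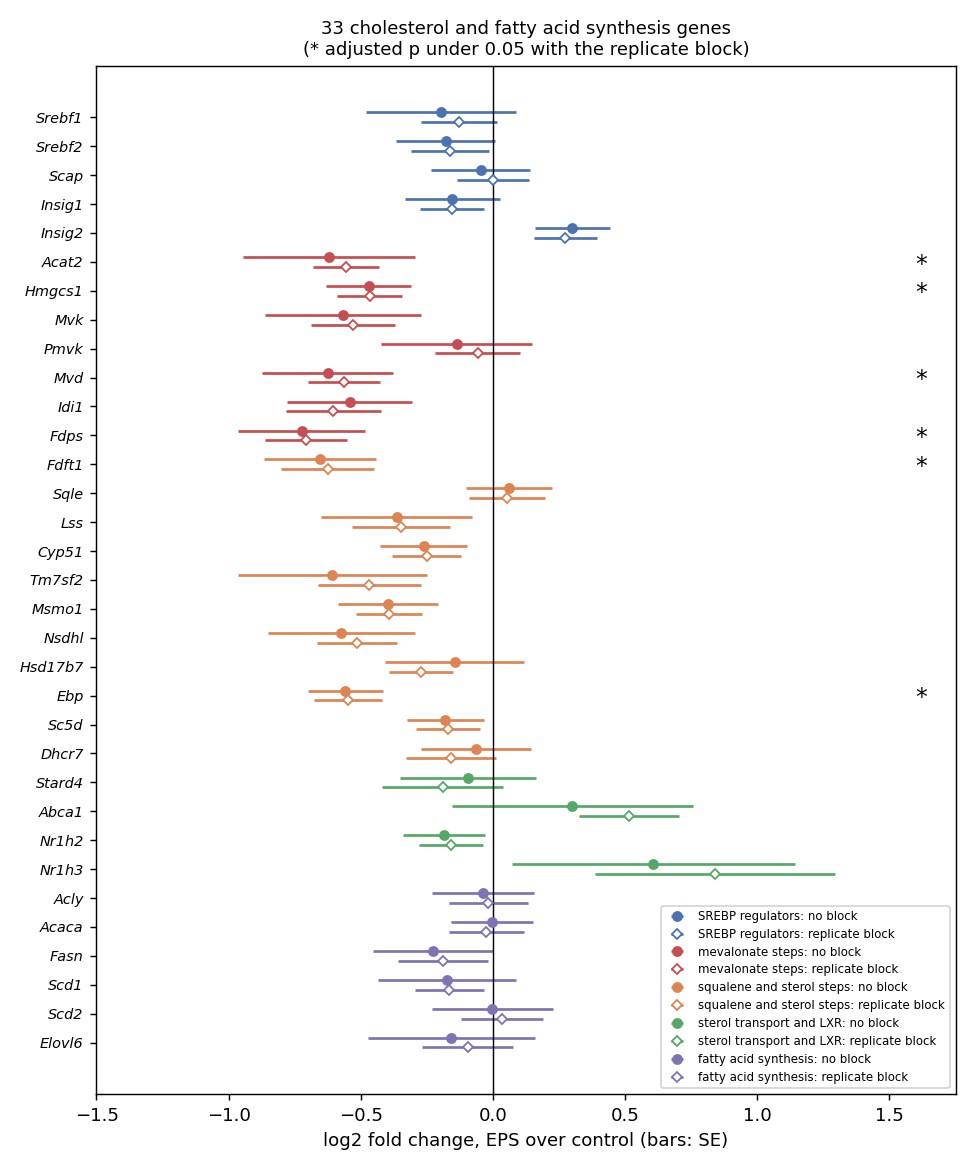
Log2 fold change, EPS over control, of the 33 genes with approximate standard errors, fitted by edgeR without a block (filled circles) and with the replicate block (open diamonds), coloured by role. The 6 genes with an asterisk had an adjusted p under 0.05 with the block; without it the smallest adjusted p was 0.0655, for Ebp.

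The median over the mevalonate steps was steady from pair to pair, while single genes were not. In pair 2 the mevalonate genes ran from -1.11 (Fdps) to 1.05 (Pmvk) on the log2 scale. The Pmvk value of control replicate 2 rests on 4 fragments, and in pairs 1, 3 and 4 Pmvk differed by 0.08, -0.41 and -0.04. The median log2 difference of the mevalonate steps, EPS minus control, was -0.60, -0.48, -0.49 and -0.51 in pairs 1 to 4. That of the squalene and sterol steps was -0.25, -0.13, -0.38 and -0.34. Fatty acid synthesis had medians of 0.13, 0.44, -0.30 and -0.19, so pairs 1 and 2 lay above 0 and pairs 3 and 4 below it. The SREBP regulators were at -0.09, 0.26, -0.15 and -0.18, and transport and LXR at 0.13, 0.12, 0.21 and 0.05. Over all genes tested the medians were 0.01, 0.28, 0.01 and 0.00, and pair 2, whose control is the shallow library, was thus shifted upward as a whole.

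**Figure D3:**
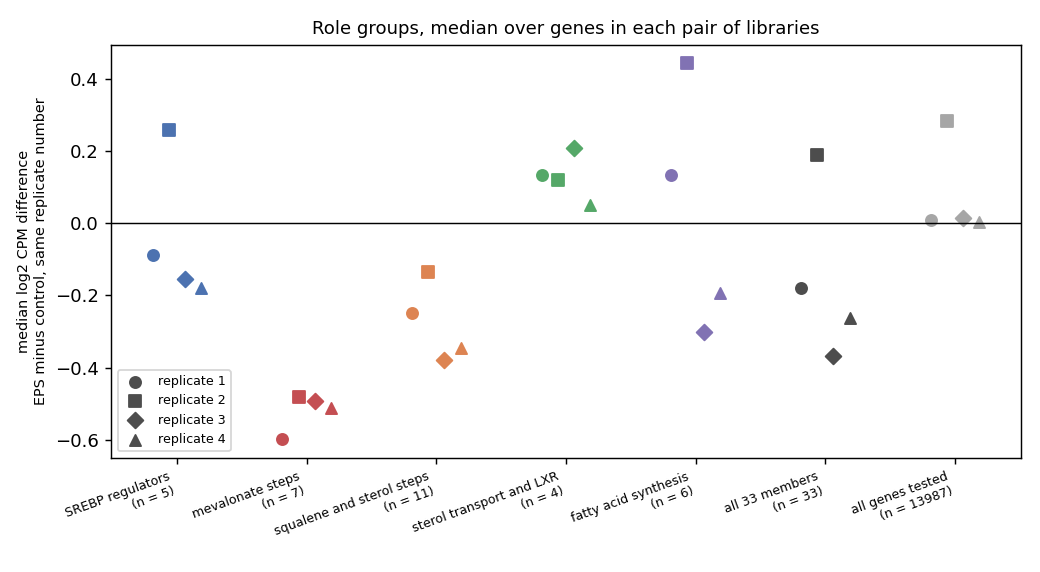
Median difference of log2 CPM, EPS minus control, within each pair of libraries of the same replicate number (marker shape), for the 5 role groups, all 33 members and all genes tested. The mevalonate steps lie between -0.60 and -0.48 in every pair, fatty acid synthesis lies on both sides of 0, and all genes lie near 0 except in pair 2, at 0.28.

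The promoters of the members were read for the letters that sterol regulation is known for. Of the 33 members, 27 had at least 1 window of 300 bases in RefSeq (build GRCm38.p6, mm10). Each window ran from 250 bases before a start of transcription to 50 after it. The 27 members had 36 windows, and all 27025 genes with a window had 32851. A gene with several windows was counted for a motif if any of them held it. Of the 6 genes that edgeR called lower with the block and not without it, those with a window were Hmgcs1, Mvd, Acat2 and Ebp. Their windows are shown. Each is given 5′ to 3′ on the gene's own strand, and capitals mark TCACNCCAC (close to the sterol regulatory element that SREBP binds), CCAAT (the letters that NF-Y binds) and GGGCGG (the letters that Sp1 binds), on either strand, so that ATTGG and CCGCCC are the reverse complements of the last 2. The windows lie at chr13:119690101-119690400 on the plus strand for Hmgcs1, chr8:122443373-122443672 on the minus strand for Mvd, chr17:12960676-12960975 on the minus strand for Acat2 and chrX:8193463-8193762 on the minus strand for Ebp.
Hmgcs1: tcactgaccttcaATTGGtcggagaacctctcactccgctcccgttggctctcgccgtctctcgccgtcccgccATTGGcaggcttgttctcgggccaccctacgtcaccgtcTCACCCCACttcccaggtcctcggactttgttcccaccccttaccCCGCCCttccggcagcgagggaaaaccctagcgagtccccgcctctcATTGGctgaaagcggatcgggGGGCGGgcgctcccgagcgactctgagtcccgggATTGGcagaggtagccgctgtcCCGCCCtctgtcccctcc
Mvd: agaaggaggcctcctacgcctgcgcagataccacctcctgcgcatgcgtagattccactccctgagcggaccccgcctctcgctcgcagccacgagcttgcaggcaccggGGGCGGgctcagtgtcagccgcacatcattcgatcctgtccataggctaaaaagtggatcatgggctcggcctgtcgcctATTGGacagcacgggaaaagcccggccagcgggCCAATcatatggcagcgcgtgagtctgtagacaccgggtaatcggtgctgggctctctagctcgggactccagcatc
Acat2: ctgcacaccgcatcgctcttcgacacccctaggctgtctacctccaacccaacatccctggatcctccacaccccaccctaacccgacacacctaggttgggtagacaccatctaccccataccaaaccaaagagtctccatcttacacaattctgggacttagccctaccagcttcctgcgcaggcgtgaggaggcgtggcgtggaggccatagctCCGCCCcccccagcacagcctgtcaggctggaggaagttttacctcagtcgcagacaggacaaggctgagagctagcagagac
Ebp: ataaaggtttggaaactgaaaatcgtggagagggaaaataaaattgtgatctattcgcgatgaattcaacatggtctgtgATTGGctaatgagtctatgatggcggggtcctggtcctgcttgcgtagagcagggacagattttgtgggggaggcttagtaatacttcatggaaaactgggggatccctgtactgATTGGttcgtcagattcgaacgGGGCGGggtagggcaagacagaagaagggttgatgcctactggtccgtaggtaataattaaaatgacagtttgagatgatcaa

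TCACNCCAC was found in 1 of the 27 members with a window, Hmgcs1, as TCACCCCAC with its first base 137 bases before the start, and in 1.44% of the genes with a window. The full sterol regulatory element of 10 bases, which holds a case of the shorter form, was in 0 members and in 0.0999% of genes. CCAAT was in 20 of the 27 (74.1%), against 41.1% of all genes with a window and 42.9% of those tested here. All 9 squalene and sterol genes with a window held it, as did 5 of 6 mevalonate genes, 4 of 5 SREBP regulators, 2 of 4 fatty acid genes and 0 of 3 transport and LXR genes; Acat2 was the mevalonate gene with no match in this window. GGGCGG was in 21 (77.8%), against 38.2% of all genes and 69% of those tested. The E-box CACGTG was in 6 (22.2%), against 8.09% and 11.9%, and TGACNNNGC, the core of the antioxidant response element that NRF2 binds, in 4 (14.8%), against 14% and 17%. These are counts of letters and not of binding.

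Along the mevalonate steps, 4 of 7 enzymes fell with the replicate block and all 7 had a fold change below 1. Acat2 (ENSMUSG00000023832, chromosome 17, 12942890 to 12960747) encodes the cytosolic thiolase that joins acetyl-CoA units at the head of the route. It had 22.1, 18.3, 46.4 and 30.9 CPM in EPS replicates 1 to 4, against 33.5, 25.6, 65.4 and 46.6 CPM in control replicates 1 to 4. The groups overlapped, since replicates 3 and 4 were higher than replicates 1 and 2 in both. Within every pair EPS was lower, but the value of control replicate 2 rests on 9 fragments. Its log2 fold change was -0.62 (SE 0.33, edgeR adjusted p = 0.346) without the block and -0.56 (SE 0.12, adjusted p = 0.0171) with it. Of the 50-base stretches of its main transcript, 45.9% also occur in the paralog Acat3, which had 59 fragments over all 8 libraries and was not tested.

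Hmgcs1 (ENSMUSG00000093930, chromosome 13, 119690379 to 119708260) encodes the cytosolic HMG-CoA synthase, the step before mevalonate itself is formed. Its levels were 260.4, 297, 305 and 255 CPM in EPS, against 327, 438, 425 and 364 CPM in control. Every EPS library lay below every control library, which was so for 4.83% of all genes tested. Its log2 fold change was -0.47 in both fits (SE 0.16 and edgeR adjusted p = 0.150 without the block, SE 0.12 and adjusted p = 0.0354 with it), a level 27.7% lower in EPS with the block.

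Mvd (ENSMUSG00000006517, chromosome 8, 122433601 to 122443422) encodes the decarboxylase that turns mevalonate diphosphate into isopentenyl diphosphate, the first isoprene unit. It had 19.2, 15.4, 30.3 and 21.1 CPM in EPS, against 31.5, 22.7, 44.2 and 28.3 CPM in control. EPS was lower in every pair, while the groups as wholes overlapped and the value of control replicate 2 rests on 8 fragments. The log2 fold change was -0.63 (SE 0.25, edgeR adjusted p = 0.209) without the block and -0.56 (SE 0.14, adjusted p = 0.0233) with it. With length and GC offsets added to the block the call was lost (adjusted p = 0.0671).

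Fdps (ENSMUSG00000059743, chromosome 3, 89093588 to 89101959) encodes farnesyl diphosphate synthase, whose product is the branch point to sterols, dolichol, ubiquinone and prenylated proteins. It had 68.0, 55.1, 114 and 87.0 CPM in EPS, against 133, 119, 171 and 108 CPM in control. Only EPS replicate 3 reached into the control range, and the pairs differed by -0.96, -1.11, -0.59 and -0.31 on the log2 scale. The fold change was the lowest of the 33 genes, at a log2 value of -0.72 (SE 0.24, edgeR adjusted p = 0.140) without the block and -0.71 (SE 0.15, adjusted p = 0.0152) with it. Gm43738 overlaps it on the same strand, shares 11.7% of the 50-base stretches of Fdps, and had a mean of 4.97 CPM in EPS and 1.57 CPM in control.

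The other 3 mevalonate genes did not pass in either fit. Mvk, the mevalonate kinase, had a log2 fold change of -0.53 (edgeR adjusted p = 0.0550) with the block, and Idi1, the isopentenyl diphosphate isomerase, -0.60 (adjusted p = 0.0535). Both rest on 3 fragments in control replicate 2, and 21.3% of the 50-base stretches of Idi1 also occur in Gm13502, whose own log2 fold change was -0.55. Pmvk, the phosphomevalonate kinase, was near 0 at -0.06 (adjusted p = 0.859 with the block). The block without replicate 2 of both groups called Mvk and Idi1 lower as well (adjusted p = 0.0137 and 0.0221), as did the block with length and GC offsets (adjusted p = 0.0442 and 0.0309).

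Of the squalene and sterol enzymes, 2 of 11 fell with the block and 10 of 11 had a fold change below 1. Fdft1 (ENSMUSG00000021273, chromosome 14, 63145150 to 63179578) encodes squalene synthase, the first enzyme committed to sterols. It had 80.0, 64.2, 111 and 90.95 CPM in EPS, against 139, 159, 155 and 99.8 CPM in control. EPS replicate 3 lay above control replicate 4, so the groups overlapped, and the pair differences were -0.79, -1.31, -0.47 and -0.13 on the log2 scale. The log2 fold change was -0.66 (SE 0.21, edgeR adjusted p = 0.130) without the block and -0.63 (SE 0.18, adjusted p = 0.0439) with it. Here too the call was lost with length and GC offsets (adjusted p = 0.0786). Of the 50-base stretches of the main Fdft1 transcript, 10.9% also occur in Gm6781. The opposite-strand Ctsb, a lysosomal protease gene with 853 CPM in EPS and 570 CPM in control, overlaps Fdft1. Ctsb was higher in EPS with the block (log2 fold change 0.58, edgeR adjusted p = 0.0322). Overlaps given here are of gene spans, and overlap of exons was not computed. Without a stated strand setting, reads from any exonic bases that the pair shares cannot be told apart.

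Ebp (ENSMUSG00000031168, chromosome X, 8185329 to 8193512) encodes the emopamil-binding sterol isomerase, which moves a double bond in the sterol ring late in the route. It had 100.2, 91.8, 113 and 98.4 CPM in EPS, against 160, 156, 148 and 132 CPM in control. All 4 EPS libraries lay below all 4 control libraries, and Ebp shared no 50-base stretch with another gene. Its log2 fold change was -0.56 (SE 0.14, edgeR adjusted p = 0.0655) without the block and -0.55 (SE 0.13, adjusted p = 0.0216) with it, so its level was 31.6% lower in EPS with the block.

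Msmo1, a methylsterol oxidase that takes part in removing sterol methyl groups, had 88.9, 111, 118 and 88.9 CPM in EPS, against 122, 168, 152 and 104 CPM in control. It was lower in EPS in all 4 pairs with overlapping groups, and its log2 fold change was -0.39 (SE 0.13, edgeR adjusted p = 0.0698) with the block. It was called lower with length and GC offsets (adjusted p = 0.0462) and without replicate 2 of both groups (adjusted p = 0.0342). The remaining 8 ran between a log2 fold change of -0.51 and 0.05 with the block, with no call. At the low end was Nsdhl, the sterol dehydrogenase of demethylation (adjusted p = 0.0535), which was called lower with offsets (adjusted p = 0.0212) and without replicate 2 (adjusted p = 0.00582), and at the high end Sqle, the squalene epoxidase that is a rate-limiting step (adjusted p = 0.851). Between them were the cyclase Lss, called lower without replicate 2 of both groups (adjusted p = 0.00901), the lanosterol demethylase Cyp51, the sterol reductases Tm7sf2 and Dhcr7, the ketoreductase Hsd17b7 and the desaturase Sc5d. Of these, Cyp51, Hsd17b7 and Sc5d were lower in EPS in all 4 pairs. Cyp51 overlaps Akap9 on the opposite strand, with the same limit as for Fdft1. Tm7sf2 overlaps Vps51 on the same strand, where a strand setting would not separate reads from any exonic bases they share.

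**Figure D4:**
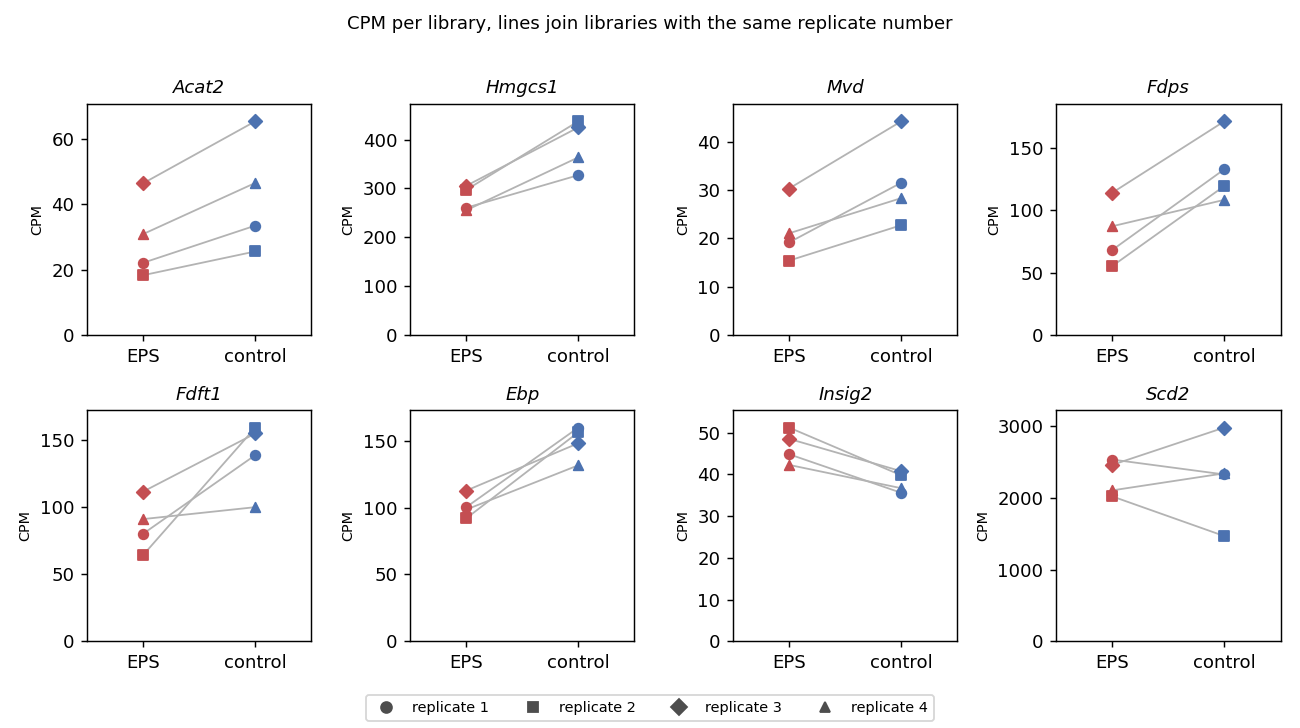
CPM in each EPS library (red, left) and each control library (blue, right) of the 6 genes that fell with the replicate block, of Insig2, and of Scd2 as the gene with the highest level; marker shape is the replicate number and lines join equal numbers. For Hmgcs1 and Ebp all EPS points lie below all control points, for Insig2 all lie above, and for Scd2 the lines run both ways.

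None of the SREBP regulators among the members passed the test in either fit. Srebf2, which encodes the SREBP that mainly drives cholesterol genes, had 174, 136, 162 and 137 CPM in EPS, against 185, 114, 180 and 197 CPM in control. The groups overlapped and its log2 fold change was -0.18 (SE 0.19, edgeR adjusted p = 0.658). Insig1, an anchor of SCAP and itself an SREBP target, had 98.5, 108, 134 and 93.0 CPM in EPS, against 103, 117, 150.0 and 112 CPM in control. EPS was lower in all 4 pairs, by 0.06 to 0.26 on the log2 scale, and the log2 fold change was -0.15 (SE 0.18, adjusted p = 0.697).

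Insig2, the second anchor of SCAP, had 44.9, 51.3, 48.5 and 42.3 CPM in EPS, against 35.6, 39.8, 40.8 and 36.7 CPM in control. It was the member with every EPS library above every control library, an arrangement that 9.32% of all genes tested showed. The 39.8 CPM of control replicate 2 rests on 14 fragments, at 2.84 CPM per fragment, and the lowest EPS value was 42.3 CPM. The log2 fold change was 0.30 (SE 0.14, edgeR adjusted p = 0.291) without the block and 0.27 (SE 0.12, adjusted p = 0.172) with it, so the difference did not pass. The opposite-strand Gm37174, with 3.38 CPM in EPS and 2.22 CPM in control, overlaps Insig2, as Rai1 overlaps Srebf1. Srebf1, which encodes the SREBP1 forms, and Scap, the escort, had log2 fold changes of -0.20 and -0.05 (adjusted p = 0.760 and 0.927).

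Among genes of sterol transport and LXR, 0 of 4 passed in either fit. Nr1h2, which encodes LXRβ, had 44.8, 41.8, 55.5 and 51.8 CPM in EPS, against 54.2, 48.3, 63.1 and 51.7 CPM in control, with overlapping groups and a log2 fold change of -0.19 (SE 0.16, edgeR adjusted p = 0.571). Nr1h3, which encodes LXRα, was barely detected, at 1.60, 0.722, 1.50 and 3.14 CPM in EPS and at 1.90, 0, 0.945 and 0.717 CPM in control. A count of 0 in control replicate 2 allows up to 8.52 CPM there, so no difference in Nr1h3 was detectable at this depth in pair 2, and the fitted log2 fold change was 0.61 (SE 0.54, adjusted p = 0.594).

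Abca1, the LXR target that exports cholesterol, had 17.6, 3.93, 25.0 and 14.9 CPM in EPS, against 9.64, 5.68, 15.7 and 13.9 CPM in control. EPS replicate 2 had the lowest value of the 8 libraries, and the other 3 pairs were higher in EPS. The 5.68 CPM of control replicate 2 rests on 2 fragments, so neither that ranking nor the direction of pair 2 is settled. The log2 fold change was 0.30 (SE 0.46, edgeR adjusted p = 0.775) without the block and 0.52 (SE 0.19, adjusted p = 0.108) with it. Stard4, a carrier of cholesterol within the cell, was at a log2 fold change of -0.09 (adjusted p = 0.888).

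None of the 6 fatty acid genes passed in either fit, and their log2 fold changes ran from -0.23 to 0.00. Fasn, the fatty acid synthase, had 348, 286, 325 and 276 CPM in EPS, against 399.8, 202, 445 and 381 CPM in control. Its groups overlapped because control replicate 2, at 71 fragments, was the lowest of all, and the log2 fold change was -0.23 (SE 0.23, edgeR adjusted p = 0.643). Leaving replicate 2 out of both groups called it lower with the block (adjusted p = 0.0333). Scd1 had 1030.0, 1672, 1194 and 948 CPM in EPS, against 1128, 1864, 1520.0 and 965 CPM in control. It was slightly lower in EPS in every pair, by 0.03 to 0.35 on the log2 scale, with a log2 fold change of -0.17 (SE 0.26, adjusted p = 0.773).

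Elovl6, the elongase that takes palmitate to stearate, had 34.6, 31.8, 54.8 and 37.6 CPM in EPS, against 31.3, 14.2, 64.6 and 51.3 CPM in control. Pairs 1 and 2 were higher in EPS and pairs 3 and 4 lower, and the log2 fold change was -0.16 (SE 0.32, edgeR adjusted p = 0.835). Acly, which makes cytosolic acetyl-CoA from citrate, Acaca, the carboxylase that makes malonyl-CoA, and Scd2 had log2 fold changes of -0.04, 0.00 and 0.00 (adjusted p = 0.943, 0.993 and 0.997). Each of these 3 was also higher in EPS in pairs 1 and 2 and lower in pairs 3 and 4. Of the 50-base stretches of Acaca, 52.6% also occur in Gm5182, so its counts are uncertain. A p above the threshold does not show that a level was equal in both groups.

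Whether the EPS effect differed between replicates 1 and 2 and replicates 3 and 4, a split known from earlier results and not from the labels, was tested in edgeR as an interaction. It passed for 0 of 33 members and 0 of all genes tested; at an unadjusted p under 0.05 it held 3 members, Dhcr7, Stard4 and Nr1h3, against 10.6% of all genes, and no other tool was run for it. The effect within each replicate set was an unpaired contrast in the edgeR fit that gave the interaction. That fit held all 8 libraries, so the spread was estimated from all of them. The shallow library is among the controls of replicates 1 and 2. Within replicates 1 and 2, Ebp, Fdft1 and Fdps were called lower (adjusted p = 0.0275, 0.0284 and 0.0284). There 0 members were called higher, against 4.11% of all genes lower and 8.52% higher. Within replicates 3 and 4, 0 members were called lower and 0 higher, against 0.293% and 1.09% of all genes. There Ebp, Fdft1 and Fdps had log2 fold changes of -0.41, -0.33 and -0.47.

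The wider lipid pathways were covered by 6 lists of 110 other genes, 96 of them tested. Without the block 3 were higher and 3 lower, where 2.3% and 0.758% of all genes were, and with it 6 were higher and 5 lower, near the shares of 7.31% and 4.78% over all genes. Sterol uptake, synthesis and storage had 1 of 19 higher, isoprenoid branches 1 of 12 lower, SREBP processing 1 of 14 higher and 1 of 14 lower, and LXR targets and partners 1 of 11 lower. Fatty acid synthesis and modification had 0 of 26 in either direction (2 at an unadjusted p under 0.05), and glycerolipid synthesis 1 of 14 higher. The median log2 fold change over the 96 genes was 0.01, the same as over all genes tested.

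Lrp8, a receptor of the LDL receptor family for apolipoprotein E and reelin, had 43.1, 48.8, 22.9 and 18.0 CPM in EPS, against 6.93, 0, 4.88 and 5.97 CPM in control. All EPS libraries lay above all control libraries, and the fitted log2 fold change was 2.54 (SE 0.39, edgeR adjusted p = 0.00778). Gpat3, an acyltransferase of triglyceride synthesis, had 25.5, 54.5, 12.9 and 12.7 CPM in EPS, against 5.91, 0, 6.14 and 3.82 CPM in control, again without overlap (log2 fold change 2.37, SE 0.52, adjusted p = 0.0391). In both genes the 0 of control replicate 2 allows up to 8.52 CPM, which is above the other 3 controls. Pgrmc1, a haem-binding membrane protein that binds cytochrome P450 enzymes of sterol synthesis, had 83.7, 103, 99.97 and 89.8 CPM in EPS, against 40.9, 39.8, 63.9 and 61.0 CPM in control (log2 fold change 0.83, SE 0.19, adjusted p = 0.0423).

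Fbxw7, the ubiquitin ligase subunit that marks nuclear SREBP for destruction, had 85.3, 111, 88.8 and 99.6 CPM in EPS, against 202, 222, 178 and 180 CPM in control. The groups were far apart, with a log2 fold change of -1.01 (SE 0.15, edgeR adjusted p = 0.00712). Lpcat3, a phospholipid-remodelling LXR target, had 60.2, 54.8, 60.9 and 61.4 CPM in EPS, against 94.9, 76.7, 106 and 86.5 CPM in control (log2 fold change -0.64, SE 0.14, adjusted p = 0.0414). Dhdds, a subunit of the enzyme that extends farnesyl diphosphate to dolichol, had 49.4, 46.8, 46.6 and 48.1 CPM in EPS, against 90.9, 62.5, 69.8 and 69.1 CPM in control (log2 fold change -0.64, SE 0.15, adjusted p = 0.0493). In each of these 3 genes every EPS library lay below every control library. Fbxw7 overlaps Gm37240 and Lpcat3 overlaps Emg1, each on the opposite strand, with the same limit on telling their reads apart. Over the alternatives and the libraries left out in turn, Fbxw7 kept its call (adjusted p from 8.58e-07 to 0.0408). Lrp8 lost it without control replicate 3 and in limma on log2(FPKM + 0.1), with adjusted p values of 0.0515 and 0.131. Gpat3 lost it when EPS replicate 1 or any of the controls was left out. Gpat3 also lost the call by limma at either pseudocount and within replicates 3 and 4. Over these settings its adjusted p was up to 0.217. Pgrmc1 lost the call without any 1 library, without the filter, by limma and within replicates 3 and 4 (up to 0.160). Lpcat3 and Dhdds lost it without any 1 library other than control replicate 2, without the filter, by limma and within replicates 3 and 4. Over these settings their adjusted p was up to 0.178 and 0.224. Lpcat3 also lost the call within replicates 1 and 2 (0.0543), and Dhdds with RLE scaling and with a filter on mean CPM (0.0503 and 0.0509).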

How the data were processed

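Per the submitters' processing notes, the tools were Cuffdiff 2.2.1, Cufflinks and STAR 2.5.1 and the build mm10; no source used here gives the annotation release or the strand setting. The 16 GEO samples are 2 lanes each of 8 libraries. Per the file headers, the deposited table holds estimated counts of fragments per gene and library, of which 93.3% of those above 0 were whole, and all were rounded. The deposited FPKM served for levels and for limma as an alternative. Another 46 genes marked as skipped were left out. Symbols came from GENCODE by identifier (48051 matched).

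Genes passing filterByExpr (minimum count 10, total 15) were scaled by TMM and tested with edgeR 4.0.16 (limma 3.58.1, R 4.3.3) without covariate, with Benjamini-Hochberg adjustment over 13987 genes and a threshold of 0.05; standard errors are approximate, derived from the F statistic. The 4 EPS and 4 control libraries share replicate numbers, and deviations from the group mean of libraries with the same number correlated at 0.300, 0.214, 0.286 and 0.297, hence the replicate block; EPS 3 with control 4 and EPS 4 with control 3 also correlated, at 0.253 and 0.231, so replicates 3 and 4 resembled each other as well, and the labels do not say what a number marks. Pair differences used log2 CPM with a prior count of 2. On simulated counts of 13818 genes for EPS against control, the test recovered 47 of 100 genes changed 2-fold and 95 of 98 changed 4-fold, with 7 unchanged genes called. Limits for a count of 0 are 3 fragments and cover counting error only.

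Members, lists and the split of replicates were chosen with earlier results of these data known. Named genes are members called with or without the block, the 3 members of each role with the smallest p, and other genes called without the block. Alternatives were RLE scaling, no filter, a mean of at least 1 CPM, DESeq2 1.42.0, limma on log2(FPKM + 0.1) and log2(FPKM + 1), the block with and without length and GC offsets, replicate sets and leaving out each library.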

Additional observations from a re-analysis of the deposited data

How the results depend on the processing

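Among the members, 0 were higher under every alternative run. The number lower, 0 without the block, was 1 by DESeq2, 6 with the replicate block, 8 with the block and length and GC offsets, 3 within replicates 1 and 2, 12 with the block and without replicate 2 of both groups, and 0 within replicates 3 and 4, with RLE scaling, without the filter or with a filter on mean CPM, with limma at either pseudocount and when any 1 library was left out. All 6 members of the block were among those 12, and 4 of the 6 (Acat2, Hmgcs1, Fdps and Ebp) among the 8. The members' median log2 fold change moved to -0.38 with block and offsets, where the median of all genes was -0.10, and to -0.33 within replicates 3 and 4; leaving out 1 library gave -0.28 to -0.12.

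Of all genes, 633 were higher and 294 lower by DESeq2, 1023 and 668 with the replicate block, 625 and 710 with offsets as well, 94 and 29 by limma on log2(FPKM + 0.1), 130 and 48 on log2(FPKM + 1), 1191 and 575 in replicates 1 and 2 alone, 153 and 41 in replicates 3 and 4 alone, and 1290 and 1167 with the block without replicate 2, against 322 and 106. Without the filter 162 were lower. Leaving out 1 library gave 92 to 427 higher and 22 to 167 lower.

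Of the other lipid genes, 6 were higher and 5 lower with the block, and 5 lower with offsets. By limma the counts were 0 and 1 with a pseudocount of 0.1, and 1 and 1 with 1. Within replicates 1 and 2, 6 were higher, and within replicates 3 and 4, 1 was higher and 1 lower. With the block without replicate 2, 9 were higher and 8 lower. Without the filter 1 was lower. Leaving out 1 library gave 0 to 3 higher and 1 to 3 lower.

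Of the 33 members, 10 had a log2 fold change of opposite sign within replicates 1 and 2, 2 within replicates 3 and 4, 2 with the block, 1 with block and offsets, 1 with the block without replicate 2, 4 by limma at either pseudocount and 0 to 6 with 1 library left out; Acat2, Hmgcs1, Mvd, Fdps, Fdft1 and Ebp were never among them. Of the 16 members given in every library, those that turned were Nr1h3 (-0.57) and Fasn (0.0126) within replicates 1 and 2, Abca1 without EPS replicate 3 (-0.0477, range -0.0477 to 0.59 over libraries left out), Scd1 without control replicate 2 (0.0027, range -0.38 to 0.0027), and Elovl6 by limma (0.25 and 0.18), within replicates 1 and 2 (0.23) and without control replicate 3 (0.12, range -0.37 to 0.12). None of them was called in the setting that turned it, and the cause was not tested. On CPM per kb of exonic length the EPS levels moved to 60.8 for Hmgcs1 and Cyp51, 43.6 for Ebp, 16.5 for Msmo1, 30.9 for Sqle, 19.2 for Fdps and 2.07 for Idi1. Control replicate 2 limits all values: 3 fragments are 8.52 CPM there and 0.138 to 0.241 CPM elsewhere.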

Other observations

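With the replicate block, 5 more genes of the wider lipid lists passed than without it, named here after their values were seen; over all genes the block also raised the calls, to 7.31% higher and 4.78% lower, against 2.3% and 0.758% without it. Dgat2, which completes triglycerides, Plin2, which coats lipid droplets, and Abcg1, an LXR target that exports sterols, were higher in EPS, with log2 fold changes of 0.86, 0.68 and 0.80 (edgeR adjusted p = 0.0409, 0.0211 and 0.0392 with the block). The acyl-CoA synthetases Acsl1 and Acsl3, which activate long-chain fatty acids, were lower, at -0.54 and -0.53 (adjusted p = 0.0307 and 0.0415 with the block). Without the block their adjusted p lay between 0.0582 and 0.717.

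Markers of undifferentiated or cycling myoblasts summed to 305.9 to 688 CPM in EPS and 394 to 842 CPM in control. All 8 had a fold change below 1, as the myotube markers had, and 0 of 8 were called with or without the block. The fibroblast list summed to 14.02 to 22.45 CPM in EPS and 5.68 to 11.4 CPM in control, with 5 of its 6 genes under a mean of 1 CPM and Tcf21 at 0 in every library. The macrophage list summed to 8.45 to 30.6 CPM in EPS and 4.06 to 8.52 CPM in control, with Adgre1 at 0 in every library and Cd68 highest, at 27.0 CPM, in EPS replicate 2. In each of the last 2 lists 1 gene was higher in EPS with the block. Their part in the results above was not tested.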
